A study of Mus musculus with 12 samples.

Results

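Long noncoding RNAs (lncRNAs) are transcripts that are not translated, and many of the abundant ones stay in the nucleus. Here 8 such genes were followed in the lumbar spinal cord of the mouse: Malat1, Neat1, Meg3, Rian, Mirg, Miat, Snhg11 and Kcnq1ot1. They were chosen by name and matched by mouse symbol to the Ensembl identifiers of the counted genes, and all 8 were found among the 49548 genes counted in each library and passed the filter on low counts. Tissue that the study describes as lumbar cord was sequenced from untreated mice at 30 days of age. There was 1 library per mouse, from 8 MFN2 mice and 4 WT mice. MFN2 mice, called CMT2A in the labels, are the MitoCharc1 line, Tg(Eno2-MFN2*R94Q)L51Ugfm/J on a mixed B6;D2 background, hemizygous for human MFN2 with the R94Q change under the rat Eno2 promoter, which is active mainly in neurons. They also keep both copies of mouse Mfn2. WT mice are labelled C57BL/6, and the study's methods call them littermates. Total counts ranged from 19359454 to 26738930 per library. Nothing in the labels says how the mice were spread over litters or days of preparation.

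Libraries carry numbers. MFN2 libraries 41 to 43 and the 4 WT libraries, 44 to 47, form a first run, and MFN2 libraries 72 to 76 form a second run with no WT library. In the second run, genotype and number run cannot be told apart. Library 43 stood apart from the others: the 15 forebrain marker genes summed to 5213 CPM (a count scaled to library size, here with TMM factors) in it and to at most 479 CPM in the other libraries, and the 13 caudal Hox genes summed to 50.9 CPM against at least 292 CPM elsewhere. Hox genes of this list mark the caudal body axis, to which the spinal cord belongs. Motor neuron markers, 7 genes, summed to 361 CPM in library 43 and to at least 1760 CPM elsewhere. The description of library 43 as lumbar cord is therefore in doubt, and its tissue was not tested otherwise. It was kept in the MFN2 groups except where its removal is stated. Fold changes of the 8 RNAs, the spread of Neat1 and the closest genes are given with and without library 43, and its own value is given wherever single libraries are listed.

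Malat1 and Miat are known as RNAs of nuclear speckles and splicing-related nuclear bodies, and Neat1 is the RNA scaffold of paraspeckles. Meg3, Rian and Mirg are transcribed in the same direction from the maternal chromosome in the imprinted Dlk1-Dio3 domain, where Rian hosts many snoRNAs and Mirg many miRNAs. Kcnq1ot1 is an unspliced antisense RNA of the imprinted Kcnq1 domain that is transcribed from the paternal chromosome, and Snhg11 is a host gene of snoRNAs with high levels in brain. Malat1 and the long form of Neat1 end without a poly(A) tail, so their recovery depends on how a library is primed.

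On GRCm38 (GENCODE M21), Malat1 (chromosome 19, 5795690 to 5802672) and Neat1 (5824708 to 5845478) are both read from the minus strand. Meg3 (chromosome 12, 109541001 to 109571726), Rian (109603940 to 109661716) and Mirg (109729764 to 109749460) follow each other on the plus strand. Miat (chromosome 5, 112213228 to 112229395) and Kcnq1ot1 (chromosome 7, 143203458 to 143296549) are minus-strand genes, and Snhg11 (chromosome 2, 158375638 to 158386145) is a plus-strand gene. The counting strand is not given in the sources used here, so reads of overlapping genes may be split or shared.

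The promoters of 3 of these genes are shown because their motifs differ. All 3 RNAs were higher in MFN2 libraries 72 to 76 than in WT, and a link between motifs and levels was not tested. RefSeq start sites of 7 of the 8 genes were in the promoter table for GRCm38.p6, and Neat1 was not. Each sequence runs from 250 bases before the start site to 50 bases after it, 5′ to 3′ on the strand of the gene, and capitals mark matches on either strand to the letters TATAAA of the TATA box, TGACGTCA of the cyclic AMP response element, CCAAT of the box of that name, or GGGCGG of the GC box. The Meg3 promoter lies at chr12:109540746-109541045 on the plus strand, Malat1 at chr19:5802623-5802922 on the minus strand, and Kcnq1ot1 at chr7:143296498-143296797 on the minus strand.
Meg3: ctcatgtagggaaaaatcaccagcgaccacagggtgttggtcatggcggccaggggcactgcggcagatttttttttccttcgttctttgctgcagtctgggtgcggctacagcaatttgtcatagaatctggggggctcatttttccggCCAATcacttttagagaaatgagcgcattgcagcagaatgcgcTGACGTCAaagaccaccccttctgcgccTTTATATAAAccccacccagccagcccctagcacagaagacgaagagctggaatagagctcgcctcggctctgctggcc
Malat1: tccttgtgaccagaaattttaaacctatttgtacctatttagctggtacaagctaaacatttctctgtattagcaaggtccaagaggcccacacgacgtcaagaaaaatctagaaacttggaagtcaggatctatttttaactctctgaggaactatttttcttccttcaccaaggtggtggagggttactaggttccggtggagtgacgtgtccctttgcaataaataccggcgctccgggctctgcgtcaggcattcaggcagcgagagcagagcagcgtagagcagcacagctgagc
Kcnq1ot1: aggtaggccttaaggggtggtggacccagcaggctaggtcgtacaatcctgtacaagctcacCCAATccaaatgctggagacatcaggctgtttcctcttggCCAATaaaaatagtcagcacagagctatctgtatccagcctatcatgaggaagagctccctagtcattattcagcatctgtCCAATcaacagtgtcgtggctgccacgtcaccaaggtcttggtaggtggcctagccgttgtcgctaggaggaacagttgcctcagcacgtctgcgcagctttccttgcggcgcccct

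The Meg3 promoter held TATAAA on both strands, overlapping each other, with the first match at position -29 from the start site. It also held TGACGTCA at -57 and CCAAT at -100. Kcnq1ot1 held CCAAT at 3 places, the first at -188, and no match to the other motifs. Malat1 held none of the 4 motifs, and neither did Rian or Snhg11. Mirg held CCAAT once and Miat the GC box once, but the RefSeq start site used for Mirg lies 5217 bases inside the gene as GENCODE annotates it, so that this window is within the gene body, and the one used for Miat lies 447 bases inside. Of 32817 RefSeq promoters of the same length, 13.6% held TATAAA, 1.79% TGACGTCA, 37.4% CCAAT and 35.6% GGGCGG. These matches are a description of the letters, and binding was not measured.

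Mature miRNAs annotated in RefSeq inside the hosts numbered 26 in Mirg, 6 in Rian and 3 in Meg3. Only 1 seed (bases 2 to 8, in capitals) was shared among these 35 miRNAs, by a pair in Mirg, which is shown with a miRNA of Rian and one of Meg3 for comparison.
mmu-miR-453, Mirg: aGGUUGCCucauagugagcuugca
mmu-miR-496a-5p, Mirg: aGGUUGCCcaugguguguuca
mmu-miR-370-3p, Rian: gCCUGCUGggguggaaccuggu
mmu-miR-770-3p, Meg3: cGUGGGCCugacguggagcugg

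Mirg covers 14 annotated miRNA genes. Reads counted on them summed to between 41 and 132 per library, and 4 of the 14 were at 0 in every library. These libraries were not made for small RNA, so the counts describe fragments of longer RNA and not mature miRNA. The 2 miRNA genes inside Meg3 were at 0 in all 12 libraries.

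The label of abundant RNAs held for some of these genes and not for others. Levels per kilobase of merged exons (RPKM) were compared, because Kcnq1ot1 spans 93092 exon bases and Malat1 6983. In WT, Malat1 averaged 1308 ± 289 RPKM (SD, n = 4), ranked 21 of the 15942 tested genes and 3 of the 949 lncRNAs tested (Snhg11, typed as protein coding in GENCODE M21, included). Meg3 averaged 64.8 ± 17.4 RPKM and ranked 6 among lncRNAs. Snhg11 averaged 35.7 ± 6.83 RPKM and ranked 9. Rian, at 13.7 ± 2.90 RPKM, ranked 20, and Miat, at 9.51 ± 1.40 RPKM, ranked 30. Among all tested genes, the other 3 lay in the middle or below it. Neat1 was at 5.21 ± 1.56 RPKM, Mirg at 3.32 ± 0.809 RPKM and Kcnq1ot1 at 1.29 ± 0.249 RPKM. Of all tested genes, 42.8%, 54.3% and 74.97%, in that order, ranked above them. Among the 949 lncRNAs they ranked higher, at 62, 129 and 382 by RPKM and at 14, 40 and 13 by CPM. Malat1 was 20.2 times the level of Meg3 per length in WT, and their ranges did not overlap. Neighbours in this order did not overlap in WT either, except Neat1 and Mirg. The levels of Rian, Snhg11 and Mirg moved with the choice of length: with the longest transcript in place of merged exons Rian was at 30.9, Snhg11 at 51.8 and Mirg at 6.33 RPKM.

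**Figure D1:**
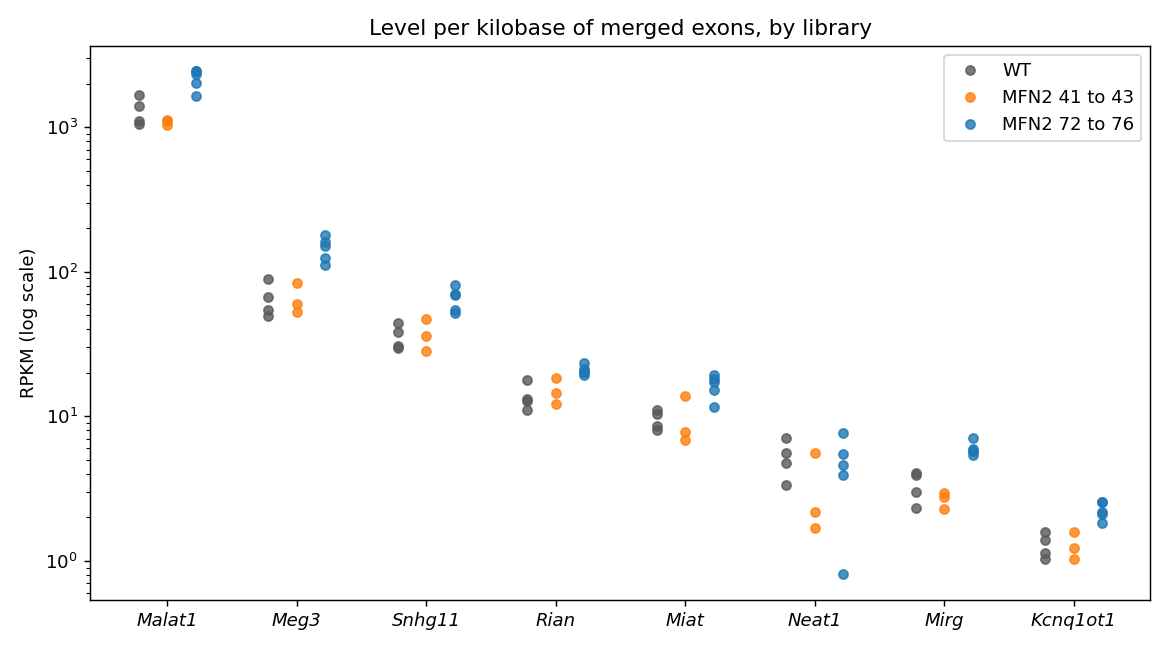
Level of each RNA in RPKM on a log axis (y), ordered by the WT mean (x), with 1 point per library for WT (n = 4), MFN2 libraries 41 to 43 (n = 3) and MFN2 libraries 72 to 76 (n = 5). Malat1 lies above the other RNAs in every library, and Neat1 spans the widest range.

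Mouse Mfn2 was at 213 ± 15.1 CPM (SD, n = 4) in WT and 206 ± 12.8 CPM (SD, n = 8) in MFN2 mice. Its log2 fold change was -0.05 (SE 0.07, adjusted p = 0.733 by the quasi-likelihood test of edgeR, adjusted after Benjamini and Hochberg). This does not check the genotype labels, since the transgene is human.

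Over all 8 MFN2 and 4 WT mice, none of the 8 RNAs passed an FDR of 0.05 in edgeR's quasi-likelihood test. In that comparison 0 of 15942 genes passed, which is 0% of the genes tested, with 2386 genes at an unadjusted p under 0.05. DESeq2 called 200 genes and none of these 8. At an unadjusted p under 0.05 were 4 of the 8: Meg3, Rian, Snhg11 and Kcnq1ot1. The log2 fold changes were positive for 7 of 8, at 0.44 for Malat1, 0.83 for Meg3, 0.45 for Rian, 0.52 for Mirg, 0.53 for Miat, 0.62 for Snhg11 and 0.55 for Kcnq1ot1, and it was -0.38 for Neat1. The median over the 8 was 0.53, beside 0.00375 over all tested genes. Without library 43, the count of these RNAs stayed at 0 and 19 genes passed in all. The log2 fold changes were then 0.51 for Malat1, 0.89 for Meg3, 0.45 for Rian, 0.60 for Mirg, 0.53 for Miat, 0.65 for Snhg11 and 0.58 for Kcnq1ot1. Neat1 was at -0.27 without library 43, and ran from -0.59 without library 73 to -0.20 without WT library 45.

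In MFN2 libraries 72 to 76, 7 of the 8 RNAs were higher than in WT at an FDR of 0.05, and Neat1 did not pass. Over all tested genes 11.4% were called higher in this comparison, 1812 genes, and 12.2%, 1941 genes, were called lower. This balance depended on the scaling: with library size alone 2813 genes were higher and 1349 lower, and with upper-quartile scaling 2004 and 1761. The median log2 fold change of the 8 was 0.80, beside 0.0045 over all genes. The ranges of 6 of the 8 lay wholly above WT, while 9.43% of tested genes did so. All 7 calls stood when each library was left out in turn and under each other scaling, filter and test that was tried. In bulk samples a different number of cells of a type and a different amount of RNA per cell cannot be told apart, for these RNAs as for the markers described later.

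Among the speckle RNAs, Malat1 was at 9713, 7761, 7326 and 11728 CPM in WT libraries 44 to 47. It was at 7844, 7259 and 7660 CPM in MFN2 libraries 41 to 43, and at 11530, 17045, 14156, 16992 and 16329 CPM in libraries 72 to 76. The libraries of the second run were therefore higher than 41 to 43 throughout, and library 72 fell just below the highest WT library. Against WT the log2 fold change was 0.74 (SE 0.16, n = 5 and 4, adjusted p = 0.00894 in edgeR's quasi-likelihood test). Malat1 took between 0.704% and 1.16% of all counts in WT, and up to 1.76% in the second run.

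Miat was at 96.3, 75.03, 79.9 and 102.3 CPM in WT and at 107, 169, 161, 179 and 142 CPM in libraries 72 to 76, with no overlap. Its log2 fold change was 0.78 (SE 0.15, adjusted p = 0.00669, edgeR). In libraries 41 to 43 it was at 64.1, 72.9 and 128 CPM, the last being library 43, which alone of the 3 was above the WT range.

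Neat1, the paraspeckle RNA, did not move with the others. It was at 116, 148, 70.1 and 98.8 CPM in WT, at 115, 45.2 and 35.1 CPM in libraries 41 to 43, and at 16.7, 159, 81.1, 96.0 and 115 CPM in libraries 72 to 76. Library 72 was the lowest of all and library 73 the highest, so the second run covered more than the whole WT range. The log2 fold change against WT was -0.21 (SE 0.55, adjusted p = 0.823, edgeR), which turned to 0.06 without library 72. The SD of Neat1 over the 12 libraries was 0.95 on the log2 CPM scale (0.92 without library 43), and 2.33% of tested genes had a larger one, while the median gene had 0.238.

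The 3 RNAs of the Dlk1-Dio3 domain were all higher in the second run. Meg3 was at 1602, 900.5, 978 and 1205 CPM in WT, at 952, 1080 and 1516 CPM in libraries 41 to 43, and at 2023, 2732, 2884, 3236 and 2251 CPM in libraries 72 to 76. All 5 second-run libraries were above all 7 first-run libraries, and the log2 fold change against WT was 1.17 (SE 0.20, adjusted p = 0.00461, edgeR), the largest of the 8. Only 1.19% of tested genes had a larger log2 fold change in this comparison.

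Rian was at 326, 203, 232 and 239 CPM in WT, at 224, 265 and 335 CPM in libraries 41 to 43, and at 352, 371, 388, 427 and 367 CPM in libraries 72 to 76. The second run was above the first throughout, by a log2 fold change of 0.61 against WT (SE 0.12, adjusted p = 0.00609, edgeR). Mirg was at 29.4, 17.01, 21.7 and 28.6 CPM in WT, at 16.8, 21.6 and 20.2 CPM in libraries 41 to 43, and at 41.8, 43.1, 41.8, 52.1 and 39.6 CPM in libraries 72 to 76. Its log2 fold change against WT was 0.86 (SE 0.15, adjusted p = 0.00393, edgeR), with no overlap.

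The ratio of Rian to Meg3 was lower in every second-run library than in every first-run library, while both ratios of Mirg overlapped between WT and libraries 72 to 76. The log2 ratio of Rian to Meg3 per length was -2.23 ± 0.12 (SD, n = 4) in WT, -2.10, -2.04 and -2.19 in libraries 41, 42 and 43, and -2.78 ± 0.18 (n = 5) in libraries 72 to 76, where every library was below the lowest WT value of -2.35. Mirg to Meg3 overlapped between WT and libraries 72 to 76, at -4.28 ± 0.18 and -4.59 ± 0.19, and was at -4.51, -4.33 and -4.92 in libraries 41, 42 and 43. Mirg to Rian was at -2.06 ± 0.22 in WT and -1.81 ± 0.08 in libraries 72 to 76, also with overlap, and at -2.41, -2.29 and -2.73 in libraries 41, 42 and 43, all below the second run. These ratios are descriptions and were not tested. Of the 5 tested protein-coding genes of the same domain, which are expressed from the paternal chromosome or lie beside it, 0 passed in edgeR, beside 11.4% of all tested genes called higher and 12.2% called lower, and their median log2 fold change against WT was -0.05 in libraries 72 to 76 (0.01 under library-size scaling).

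**Figure D2:**
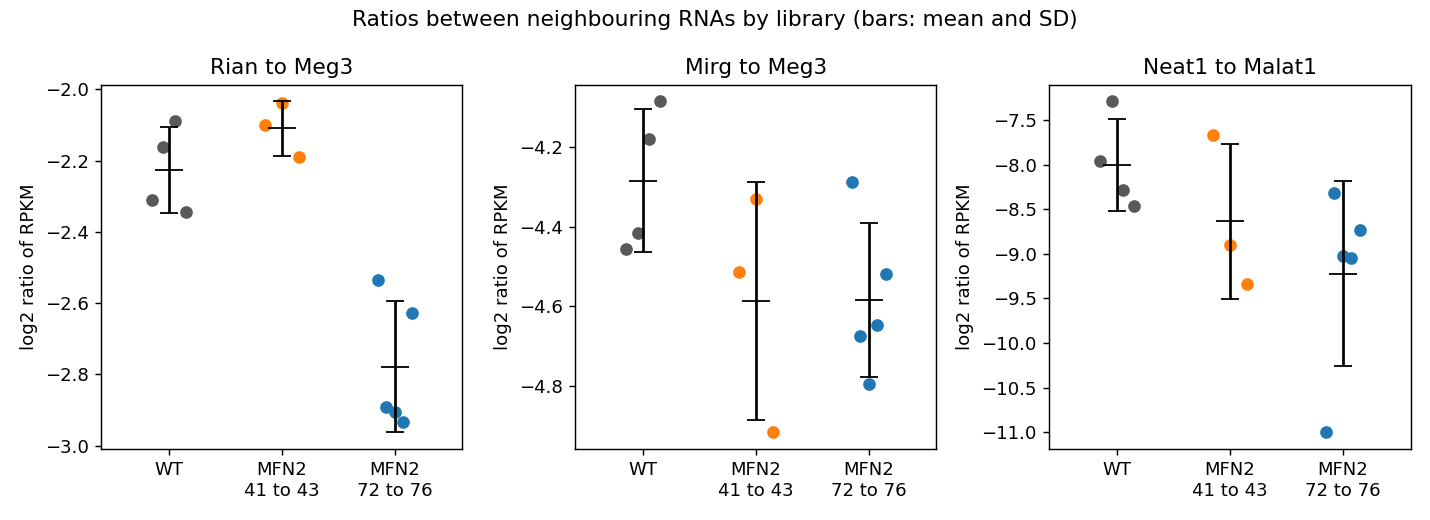
Log2 ratio of RPKM (y) for Rian to Meg3, Mirg to Meg3 and Neat1 to Malat1 in WT (n = 4), MFN2 libraries 41 to 43 (n = 3) and MFN2 libraries 72 to 76 (n = 5), with 1 point per library and bars for mean and SD. Rian to Meg3 is lower in all 5 libraries of the second run than in the other 7, and Neat1 to Malat1 reaches -11.0 in library 72.

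Kcnq1ot1, the antisense RNA of the Kcnq1 domain, was at 129, 106, 96.0 and 148 CPM in WT, at 95.7, 115 and 147 CPM in libraries 41 to 43, and at 170, 238, 204, 239 and 196 CPM in libraries 72 to 76. The groups did not overlap in the second run, and the log2 fold change against WT was 0.81 (SE 0.14, adjusted p = 0.0038, edgeR). Kcnq1 itself, on the opposite strand, had at most 38 counts. Of 11 protein-coding genes of the domain 5 were tested, and of these Cd81, a tetraspanin, passed at a log2 fold change of -0.23 (adjusted p = 0.0059, edgeR), from 477 ± 17.1 to 406 ± 18.7 CPM. The other 4 did not pass, and 1 lower call among 5 genes stands beside 12.2% lower over all tested genes.

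Snhg11 was at 377, 253, 261 and 325 CPM in WT, at 243, 307 and 403 CPM in libraries 41 to 43, and at 443, 590, 602, 686 and 460 CPM in libraries 72 to 76. Its log2 fold change against WT was 0.88 (SE 0.16, adjusted p = 0.00591, edgeR), with no overlap. One of the 2 snoRNA genes inside it was at 0 throughout, and the other had between 40 and 196 counts.

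**Figure D3:**
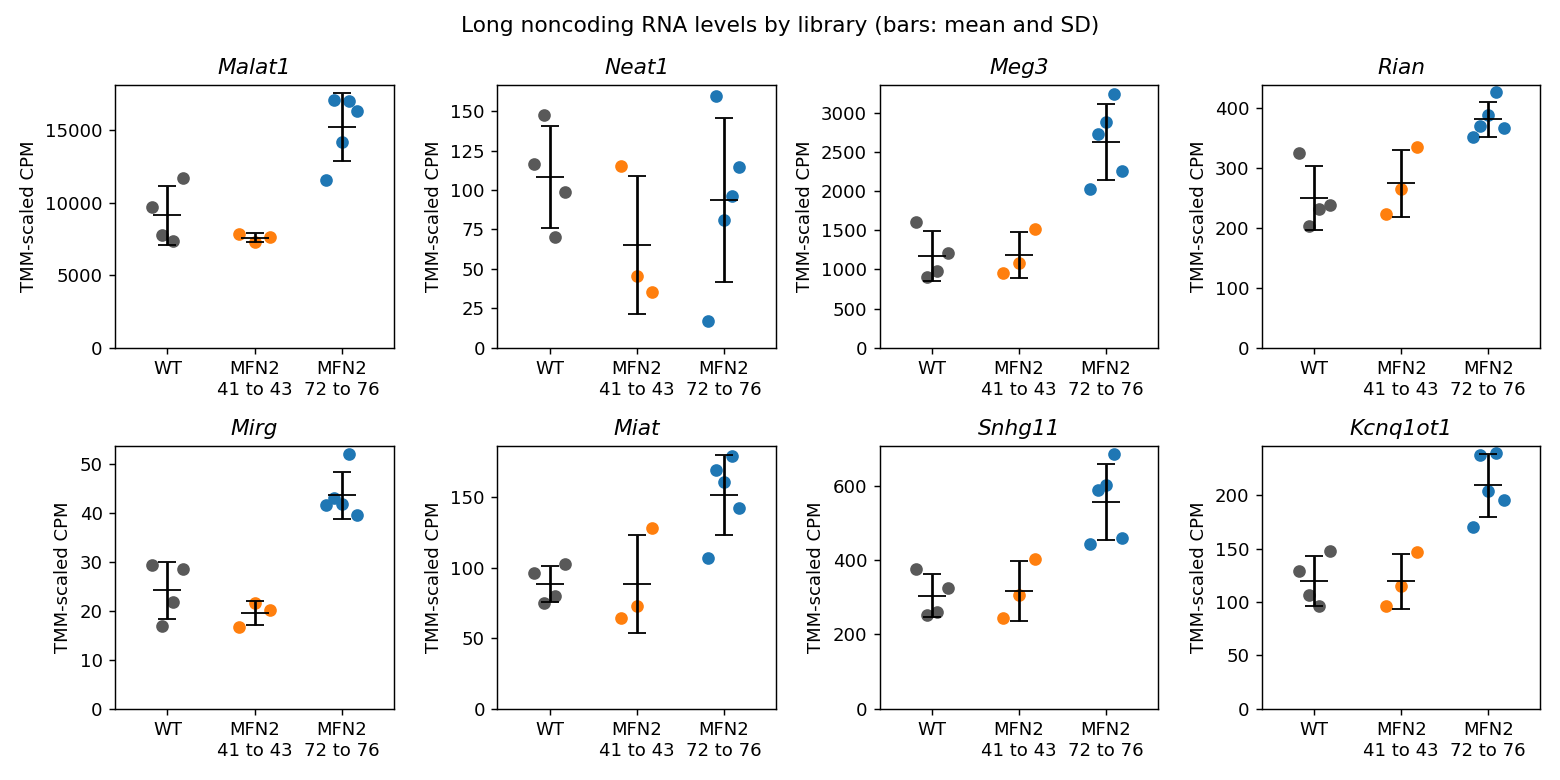
TMM-scaled CPM (y, from 0) of each of the 8 RNAs in WT (n = 4), MFN2 libraries 41 to 43 (n = 3) and MFN2 libraries 72 to 76 (n = 5), with 1 point per library and bars for mean and SD. In 6 of the panels every second-run library lies above every WT library, in Malat1 1 second-run library falls within the WT range, and in Neat1 the groups overlap throughout.

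MFN2 libraries 41 to 43 gave no such calls. Against the same 4 WT libraries, none of the 8 RNAs passed in edgeR or DESeq2, and 0 were at an unadjusted p under 0.05. Over all genes 1 passed in edgeR, which is 0.00627% of those tested, with 1148 at an unadjusted p under 0.05, and 4 passed in DESeq2. The log2 fold changes ran from -0.72 for Neat1 and -0.29 for Mirg to 0.15 for Rian, with Meg3 at 0.03, Miat at 0.02, Snhg11 at 0.08 and Kcnq1ot1 at 0.01, and Malat1 was at -0.25 (SE 0.18, adjusted p = 0.663, edgeR). With each library left out in turn, Neat1 ran from -1.41 without library 41 to -0.42 without library 43, Malat1 from -0.34 without WT library 46 to -0.10 without WT library 47, and Mirg from -0.42 without WT library 45 to -0.18 without WT library 44. Without library 43, Malat1 was at -0.26 and Mirg at -0.32, and Meg3 was at -0.19, Rian at -0.02, Miat at -0.36, Snhg11 at -0.13 and Kcnq1ot1 at -0.17 on the log2 scale, so that the last 5 turned from a small positive to a negative value, and none of the 8 passed. This comparison has 3 MFN2 libraries and the other 5, so their power differs. Both comparisons use the same WT libraries, so their values are not independent.

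MFN2 libraries of the 2 runs were then compared with each other. Libraries 72 to 76 were higher than 41 to 43 for Malat1 (log2 fold change 0.98, SE 0.14, adjusted p = 0.0188), Meg3 (1.12, SE 0.21, adjusted p = 0.0402) and Mirg (1.14, SE 0.12, adjusted p = 0.00853), all in edgeR's quasi-likelihood test. Across all genes 0.947% were called higher in this comparison, 151 genes, and 180 were called lower, while library size alone gave 280 and 107 and upper-quartile scaling 226 and 112. The ranges of 6 of the 8 did not overlap, being all but Neat1 and Miat, where 9.62% of tested genes lay wholly higher. Kcnq1ot1 (0.78, adjusted p = 0.0566, edgeR, but past the threshold in 5 of 10 other settings), Snhg11 (0.78, 0.0835), Rian (0.45, 0.112), Miat (0.75, 0.136) and Neat1 (0.51, 0.656) did not pass. Neat1 ran from 0.21 without library 43 to 1.21 without library 41. Without library 43, 7 of the 8 passed, with log2 fold changes of 1.00 for Malat1, 1.36 for Meg3, 0.63 for Rian, 1.18 for Mirg, 1.14 for Miat, 1.01 for Snhg11 and 0.98 for Kcnq1ot1, and with library 41, 73, 74, 75 or 76 left out 1 of them, Mirg, passed. In those 5 fits the log2 fold changes of Malat1 (0.94 to 1.02) and Meg3 (1.01 to 1.17) stayed about as large, although neither passed. Meg3 lost its call in 7 of the 8 fits with a library left out, all but the one without library 43.

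**Figure D4:**
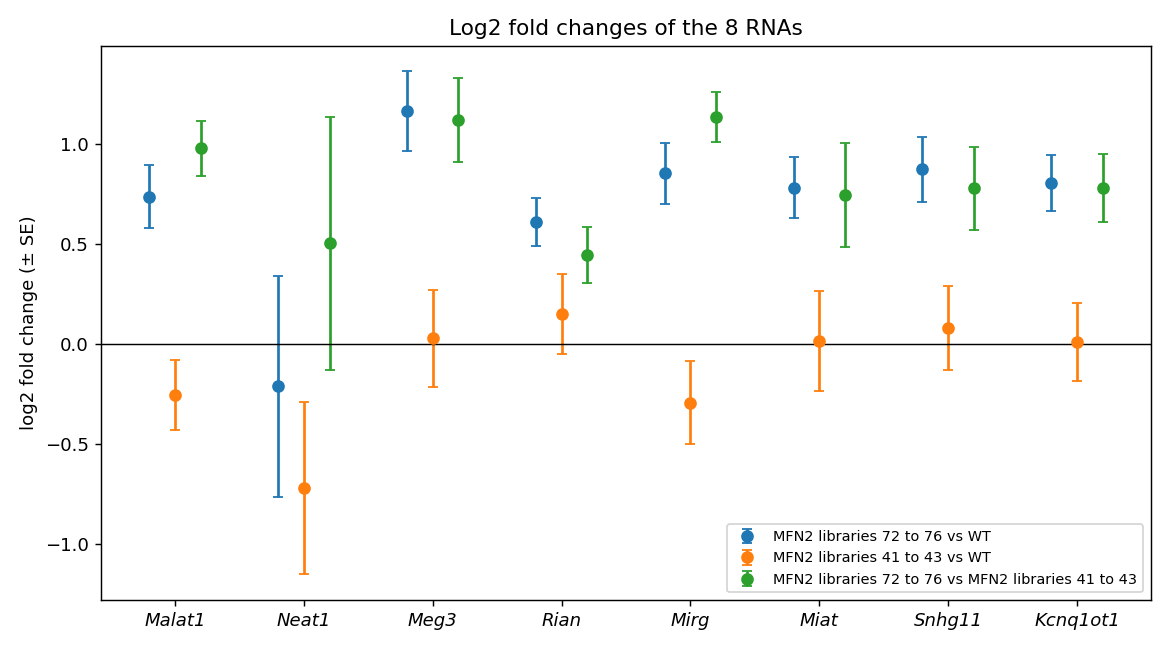
Log2 fold change (y, bars are SE) of the 8 RNAs for MFN2 libraries 72 to 76 against WT, MFN2 libraries 41 to 43 against WT, and the 2 sets of MFN2 libraries against each other. For 7 RNAs both comparisons of libraries 72 to 76 lie above 0, while libraries 41 to 43 against WT lie at 0.15 or less, and Neat1 has the longest bars.

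The lncRNAs as a class were called about as often in either direction. Of 948 tested lncRNA genes, 9.81% were higher and 10.1% lower in libraries 72 to 76 than in WT, and of 13793 protein-coding genes 10.01% were higher and 13.1% lower. Over all tested genes, 11.4% were higher and 12.2% lower in this comparison, and the counts of called list genes that follow are to be read beside these shares. In the fixed list of other known lncRNAs, 6 of 16 tested rose and 0 fell, with a median log2 fold change of 0.15. The median of this list was about the same, 0.14, in libraries 41 to 43 against WT, where 0 were called. Between the 2 sets of MFN2 libraries it was 0.01, also with 0 calls. Ftx, an RNA of the X-inactivation centre, rose by 0.76 on the log2 scale (adjusted p = 0.000628, edgeR), from 11.3 ± 0.926 to 19.1 ± 2.53 CPM. Mir124a-1hg, the host of a neuronal miRNA, rose by 0.68, Lncpint by 0.61 and Mir99ahg by 0.44. Among snoRNA host genes 1 of 12 rose and 2 fell. Snhg14, an imprinted brain RNA that hosts snoRNAs of the Prader-Willi region, rose from 158 ± 25.5 to 261 ± 27.1 CPM (log2 fold change 0.72, adjusted p = 0.00175, edgeR), while Gas5 and Zfas1 fell by 0.42 and 0.54.

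Changes in genes for partner proteins of these RNAs were at most 0.46 on the log2 scale among those named. Of 22 tested genes for nuclear speckle and Malat1- or Miat-binding proteins, 7 rose and 1 fell in libraries 72 to 76 against WT. Srrm2, a scaffold protein of nuclear speckles, rose from 610 ± 30.8 to 777 ± 31.8 CPM (log2 fold change 0.35, adjusted p = 0.000869, edgeR). Srsf11 (0.46), Luc7l3 (0.46) and Srrm1 (0.44), splicing factors or their cofactors, rose by similar amounts, and Srsf2 fell by 0.20. Of 20 paraspeckle protein genes 5 rose (25%) and 3 fell (15%), the latter near the share of all genes. Hnrnpk, an RNA-binding protein of paraspeckles, rose from 297 ± 12.5 to 356 ± 9.77 CPM (log2 fold change 0.26, adjusted p = 0.00234, edgeR), and Fam98a fell by 0.28. The medians of both lists, 0.10 and 0.06, lay near that of all genes, but their sums were wholly above WT in libraries 72 to 76. The speckle list summed to 3123 ± 103 CPM against 2700 ± 89.7 CPM in WT. The paraspeckle list summed to 1991 ± 29.1 CPM against 1843 ± 30.3 CPM in WT. This was not particular to the second run for the paraspeckle list. Its sums in libraries 41, 42 and 43, at 1873, 1923 and 2042 CPM, were also above the highest WT sum of 1870 CPM. The speckle sums there, 2698, 2788 and 2963 CPM, overlapped WT, which reached 2816 CPM. Medians in libraries 41 to 43 against WT were 0.08 for the speckle and 0.07 for the paraspeckle list. Of 35 other imprinted genes 9 rose and 1 fell. Peg3, a paternally expressed zinc finger gene, rose from 945 ± 69.2 to 1340 ± 151 CPM (0.51, adjusted p = 0.00192, edgeR), its neighbour Zim1 by 0.69 and Grb10, an adaptor of growth factor receptors, by 0.48, while Sgce fell by 0.23.

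Markers of other cell types and ribosomal genes moved alongside. In libraries 72 to 76 against WT, 6 of 8 astrocyte markers fell, Gfap most, from 2061 ± 506 to 975 ± 340 CPM, and the summed list was 6462 ± 627 CPM against 8585 ± 498 in WT, with Slc1a2 its most abundant gene. Of 10 microglia markers 8 fell and the list summed to 177 ± 16.9 against 240 ± 28.3 CPM. Of 12 neuron markers 2 rose, Syt1 and Nefm, and 0 fell, with sums of 13524 ± 623 against 12532 ± 1463 CPM. Motor neuron and oligodendrocyte markers had 0 calls among 7 and 10 genes in edgeR. Of the remaining lists, 1 of 11 forebrain markers rose (Nrgn, 0.58), 1 of 13 Hox genes fell (Hoxa5, by 0.46) and 1 of 7 endothelial markers fell (Cldn5, by 0.81). No marker of the neuron, astrocyte, microglia, oligodendrocyte or motor neuron lists was at 0 in any library. Of 28 cytosolic ribosomal protein genes 18 fell and 0 rose, with a median log2 fold change of -0.21 and Rps16 at -0.72. The part of these shifts in the lncRNA result was not tested.

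**Figure D5:**
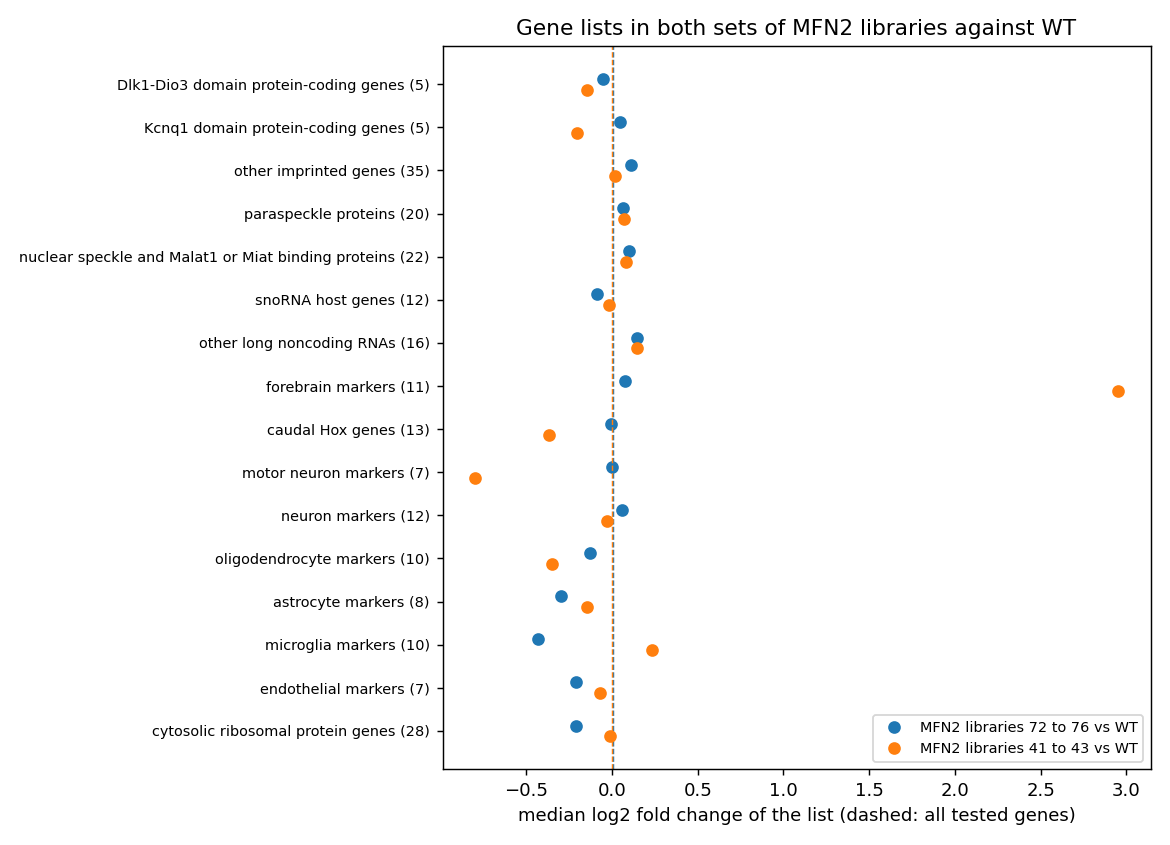
Median log2 fold change (x) of each gene list (y, number of tested genes in brackets) for MFN2 libraries 72 to 76 against WT and MFN2 libraries 41 to 43 against WT, with dashed lines at the median of all tested genes. Microglia, astrocyte and ribosomal lists lie left of the line for libraries 72 to 76, and the forebrain list at 2.95 marks the set that contains library 43.

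Genes most like each RNA over the 12 libraries were found by the root-mean-square (RMS) difference of mean-centred log2 CPM, and again over 11 libraries without library 43. The closest genes depended on that library for most of the RNAs. Snhg11 kept its 3 closest genes, Kcnq1ot1 (RMS difference 0.13), Snhg14 (0.13) and Miat (0.14). Miat had Kcnq1ot1 among its 3 closest genes both times, but Snhg11 only with library 43 included, being at rank 4 without it. Kcnq1ot1 had the lncRNAs Gm9801 (0.11) and A330076H08Rik (0.11) among its 3 closest both times, with Snhg11 in that set over 12 libraries and Xkr6 without library 43.

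Meg3 was closest to Gm26945 (0.15), a lncRNA annotated within Rian on the same strand, whose reads cannot be told from those of Rian with certainty. Without library 43, Gm43317 came first for Meg3 (0.12), Gm26945 was at rank 2 and Snhg11 moved from rank 3 to rank 7. Rian had Gm12940 first (0.10), and Arpp21 (0.09) without library 43. Mirg kept 0 of its 3 closest genes: Mir654, a miRNA gene of the same domain, was at rank 2 over 12 libraries (0.19), and Gm37180 (0.14), C78859 (0.14) and Gm26945 (0.15) took the first ranks without library 43. Malat1 shared 1 of 3, 9530059O14Rik, which came first without library 43 (0.11). The nearest gene to Neat1 was Dmrta1 at 0.49 over 12 libraries and Gm44699 at 0.48 without library 43, so its nearest gene was farther than that of Meg3 both times. The libraries differ in depth and composition, so these distances are a description only.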

How the data were processed

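Libraries of 8 MFN2 and 4 WT mice, described by the study as lumbar cord, were sequenced (75 bp paired-end, 1 library per mouse). Marker genes of library 43 went against that description. The authors aligned the reads to GRCm38 with STAR (build GRCm38.p6 and edgeR in the submitters' processing notes) and deposited raw counts for each Ensembl gene. The counting tool and strand setting are not given in the sources used here, and the labels and the methods describe the library kit and the selection of RNA differently. Genes above 1 CPM in at least 3 libraries (15942) were tested with edgeR 4.0.16 in R 4.3.3 (quasi-likelihood, robust, earlier form), TMM recomputed within the libraries compared and Benjamini-Hochberg adjustment at 0.05. RPKM is TMM-scaled CPM per kilobase of merged exons. Chi-square per degree of freedom between libraries of a genotype was at least 4.99, so none was counted as a duplicate. P-values measure the spread between these mice.

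Genes named are the 8 RNAs, Mfn2, the called genes of fixed lists (at most 4 per direction) and the 3 closest genes of each RNA. Some genes that this rule names are not reported here. The 8 RNAs, the lists and the tests were chosen with earlier results of these data known. The scripts were tested on simulated data. Alternatives were other scalings and filters, DESeq2 1.42.0, a 3-group fit and each library left out.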

Additional observations from a re-analysis of the deposited data

Results flagged for a closer look

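Among the MFN2 mice, the libraries numbered 72 to 76 and those numbered 41 to 43 differed in a direct test for 3 of the 8 RNAs, although all carry the same genotype label. The log2 fold change was 0.98 for Malat1, 1.12 for Meg3 and 1.14 for Mirg. With each library left out in turn, Mirg passed in all 8 fits. Malat1 lost its call in 5 of the 8 and Meg3 in 7 of the 8. Genotype itself was not checked here in either set, and what the number runs stand for is not given in the labels. Gaps between the lowest or highest library and the rest, as a share of the range, were examined in 22 groups of values. Chance would give about 1.1, and 0 passed Dixon's limit, which was 0.526 for 8 values and 0.829 for 4. The 8 MFN2 libraries hold both number runs, and a difference between the runs widens their range. A single deviating library can therefore be missed, and this count does not settle the doubt about library 43.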

How the results depend on the processing

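All 7 calls in libraries 72 to 76 against WT held under every alternative run. The number of genes called there was 1224 in the 3-group fit, and 2355 to 4518 with each library left out, being 2355 without WT library 45 and 2487 without WT library 46. For all MFN2 mice against WT the count was 200 in DESeq2 and 0 to 19 with each library left out (1 without library 41 or 76, 19 without 43). For libraries 41 to 43 against WT it was 4 in DESeq2, 0 without a filter and 0 in the 3-group fit, and 0 to 2 with each library left out. Between the sets of MFN2 libraries it was 1775 in DESeq2 and 1339 in the 3-group fit, where 7 and 5 of the 8 RNAs passed, and 26 to 2357 with each library left out, where 1 to 7 passed. There Kcnq1ot1 passed under upper-quartile scaling (adjusted p = 0.0458, edgeR), library-size scaling (0.0417), no filter (0.0199), the 3-group fit (0.021) and DESeq2 (0.000396), and Meg3 missed without a filter (0.0589). Without library 72, 73, 74, 75, 76 or 41 these counts were 52, 34, 26, 53, 83 and 73, and the cause was not tested.

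Signs turned for values near 0. In libraries 41 to 43 against WT, upper-quartile scaling gave -0.0013 for Meg3, -0.0134 for Miat and -0.0180 for Kcnq1ot1, testing without a filter -0.000825 for Miat and -0.00303 for Kcnq1ot1, and the 3-group fit -0.000482 and -0.00528. With each library left out there, log2 fold changes ran from -0.19 to 0.22 for Meg3, -0.0204 to 0.31 for Rian, -0.36 to 0.21 for Miat, -0.13 to 0.25 for Snhg11 and -0.17 to 0.15 for Kcnq1ot1. Neat1 in libraries 72 to 76 against WT ran from -0.49 to 0.0579. No paired analysis was possible because the genotypes have no library number in common. Depth limits Mirg most, at 362 counts in its lowest library.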
